A study of Mus musculus with 8 samples.

Results

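The 10 genes described here encode the proteins that mark and license origins of DNA replication, which are the subunits of the origin recognition complex Orc1, Orc2, Orc3, Orc4, Orc5 and Orc6, the loading factors Cdc6 and Cdt1, the Cdt1 inhibitor Gmnn (geminin) and Mcm10. They were chosen by name for their role, with earlier results of these data known. All 10 were found among the 56748 genes of the deposited expression table, and all 10 were among the 11818 genes that passed the filter on low values and were tested. The libraries came from 32D cells, a murine myeloid line that needs interleukin-3 (IL-3) to grow. All cells had been transduced with murine Jak2WT or Jak2V617F, the activated form of the kinase found in myeloproliferative neoplasms. In both backgrounds, CRISPR-Cas9 had been used to derive clones in which Slc2a1 and Slc2a3 were disrupted (GLUT1/3 dKO). These are the genes of the glucose transporters GLUT1 and GLUT3. The dKO clones were set beside clones with intact transporters (GLUT1/3 WT). Each of the 4 groups held 2 clones, numbered 1 and 3, with 1 poly(A) RNA library per clone, after 24 h in a medium with serum that also held 2 ng/ml IL-3, 5 mM glucose and glutamine at 1 mM. The dKO lines were grown from single cells, so each dKO library stands for 1 clone. The labels do not say whether a number shared between groups marks a pair, and the main fit took the numbers as names.

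Before a chromosome is copied, each origin is bound by the origin recognition complex, which is joined by the ATPase Cdc6. Cdt1 then brings in the MCM helicase, and the ring is closed around DNA in an inactive form during G1 phase, a step called licensing. Firing in S phase needs further factors, among them Mcm10, which acts on the loaded helicase. Geminin binds Cdt1 from S phase to mitosis and, together with the destruction of Cdt1 and Cdc6 proteins, keeps an origin from being licensed again in the same cycle. Several of these genes are known targets of E2F transcription factors, and their transcripts are therefore most abundant around the entry into S phase. In cultured blood progenitors, as in other dividing cells, their level in bulk RNA follows both how many cells are in cycle and how much each cell makes. Fewer cells in a phase and less RNA per cell cannot be told apart in these libraries.

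The targeted genes were read first as a check of the labels. Slc2a1 stood at 44.7 and 48.4 FPKM (fragments on a gene per unit of gene length and per unit of library total) in the Jak2WT GLUT1/3 WT clones against 9.47 and 9.17 in the dKO clones, and at 64.0 and 53.0 against 17.3 and 12.7 in Jak2V617F. Slc2a3 stood at 97.7 and 91.9 against 16.0 and 49.5 in Jak2WT, and at 198 and 166 against 48.2 and 23.8 in Jak2V617F, so every dKO clone lay below every GLUT1/3 WT clone of its background for both genes. Reads on genes, recovered from the FPKM values, ranged from 16846011 to 48884329 per library, and a member rested on 250 reads (Orc1, a counting error of 6.32%) to 5696 reads (Orc3, 1.32%) per library. Markers of the labelled myeloid lineage were present in part, with Spi1 at 11.1 to 19.8 and Csf2rb at 48.9 to 190 FPKM, while Mpo, Elane and Ctsg did not exceed 0.203 FPKM and Cebpa and Kit were listed at 0 in all libraries. Lymphoid markers did not exceed 0.708 FPKM, and of the stromal and endothelial markers only Pecam1 exceeded 0.0309 FPKM.

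Sequence around the start sites was read to show which members carry the promoter letters usually tied to this group of genes. In a window from 250 bases before to 50 bases from the annotated start (GRCm39 genome, GENCODE vM39 starts), an E2F motif (TTTCCCGC, TTTCGCGC, TTTGCCGC or TTTGGCGC on either strand) was found in 5 of the 10 members, against 2.82% of 21757 protein-coding promoters. The 5 matches, each inside a stretch of 30 bases written 5′ to 3′ along the gene, are shown with the motif in capitals.
Orc1, chr4:108436613-108436642, plus strand: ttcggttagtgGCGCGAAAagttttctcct
Orc3, chr4:34614965-34614994, minus strand: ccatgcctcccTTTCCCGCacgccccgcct
Cdc6, chr11:98798647-98798676, plus strand: gaaggctgaagtagagcggcTTTGGCGCga
Cdt1, chr8:123294768-123294797, plus strand: atccgcgggaactaccttTTTGGCGCcatg
Gmnn, chr13:24946127-24946156, minus strand: tctcgtgTTTGCCGCtagtgagagtctctt
In Orc1 the match lay on the opposite strand, 4 to 11 bases into the transcript, and in Cdc6 and Cdt1 it also lay after the start, at 40 to 47 and 38 to 45 bases. In Orc3 it lay before the start, at positions -36 to -29, and in Gmnn at -243 to -236. No E2F motif of these letters was in the windows of Orc2, Orc4, Orc5, Orc6 or Mcm10. A CCAAT box (CCAAT, either strand) was in 7 members against 39.9% of promoters, a GC box (GGGCGG) in 7 against 42.5%, and the CHR element (TTTGAA), which marks many G2 and M phase genes, in 0 against 17.1%. A match in these windows is a description of letters, not of binding.

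The 120 bases before the start are shown for the 3 members with the largest rises in Jak2V617F GLUT1/3 dKO clones (Cdc6, Mcm10 and Orc1) and for Orc5, the member that fell in both backgrounds. Capitals mark the CCAAT box on either strand.
Cdc6, chr11:98798507-98798626, plus strand: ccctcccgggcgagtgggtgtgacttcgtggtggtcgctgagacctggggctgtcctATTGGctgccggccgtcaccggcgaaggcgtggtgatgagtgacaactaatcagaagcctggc
Mcm10, chr2:5017630-5017749, minus strand: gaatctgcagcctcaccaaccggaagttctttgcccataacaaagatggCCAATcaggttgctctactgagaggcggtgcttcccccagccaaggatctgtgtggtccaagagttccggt
Orc1, chr4:108436500-108436619, plus strand: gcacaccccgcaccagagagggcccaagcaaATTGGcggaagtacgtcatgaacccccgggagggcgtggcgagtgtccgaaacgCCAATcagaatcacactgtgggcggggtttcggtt
Orc5, chr5:22755423-22755542, minus strand: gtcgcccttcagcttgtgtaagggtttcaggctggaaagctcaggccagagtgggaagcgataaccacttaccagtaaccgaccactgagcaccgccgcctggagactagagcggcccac
Orc1 held 2 CCAAT boxes in this stretch, Cdc6 and Mcm10 held 1 each, and Orc5 held none, its own CCAAT box lying farther out, at positions -223 to -219 from the start.

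Loss of GLUT1/3 in the Jak2V617F background was accompanied by higher transcript levels of 6 members and lower levels of 2. Cdc6, Mcm10, Orc1, Orc6, Cdt1 and Gmnn rose, by 1.64-fold (Gmnn) to 5.28-fold (Cdc6) in mean FPKM. Orc5 and Orc3 fell, and Orc2 and Orc4 did not pass the test. Over all genes tested, 13.7% were called higher and 16.2% lower in this comparison by limma at an adjusted p under 0.05, and the median log2 fold change was -0.02 against 0.70 over the 10 members. Of the genes called, 45.7% were higher, and 60.2% with libraries set to the same summed FPKM. In the Jak2WT background, where 7.62% of genes were called higher and 6.06% lower, the same loss left 9 members without a call. Only Orc5 fell there, and the median over the members was 0.11 against 0.01 over all genes. The called genes were higher in 55.7% of cases there, and in 33.9% with the same summed FPKM. Fold changes are on the log2(FPKM + 1) scale, which understates the change of low genes, and with 2 clones a group the smallest two-sided p that an exact permutation test can give for 1 gene is 0.333.

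**Figure D1:**
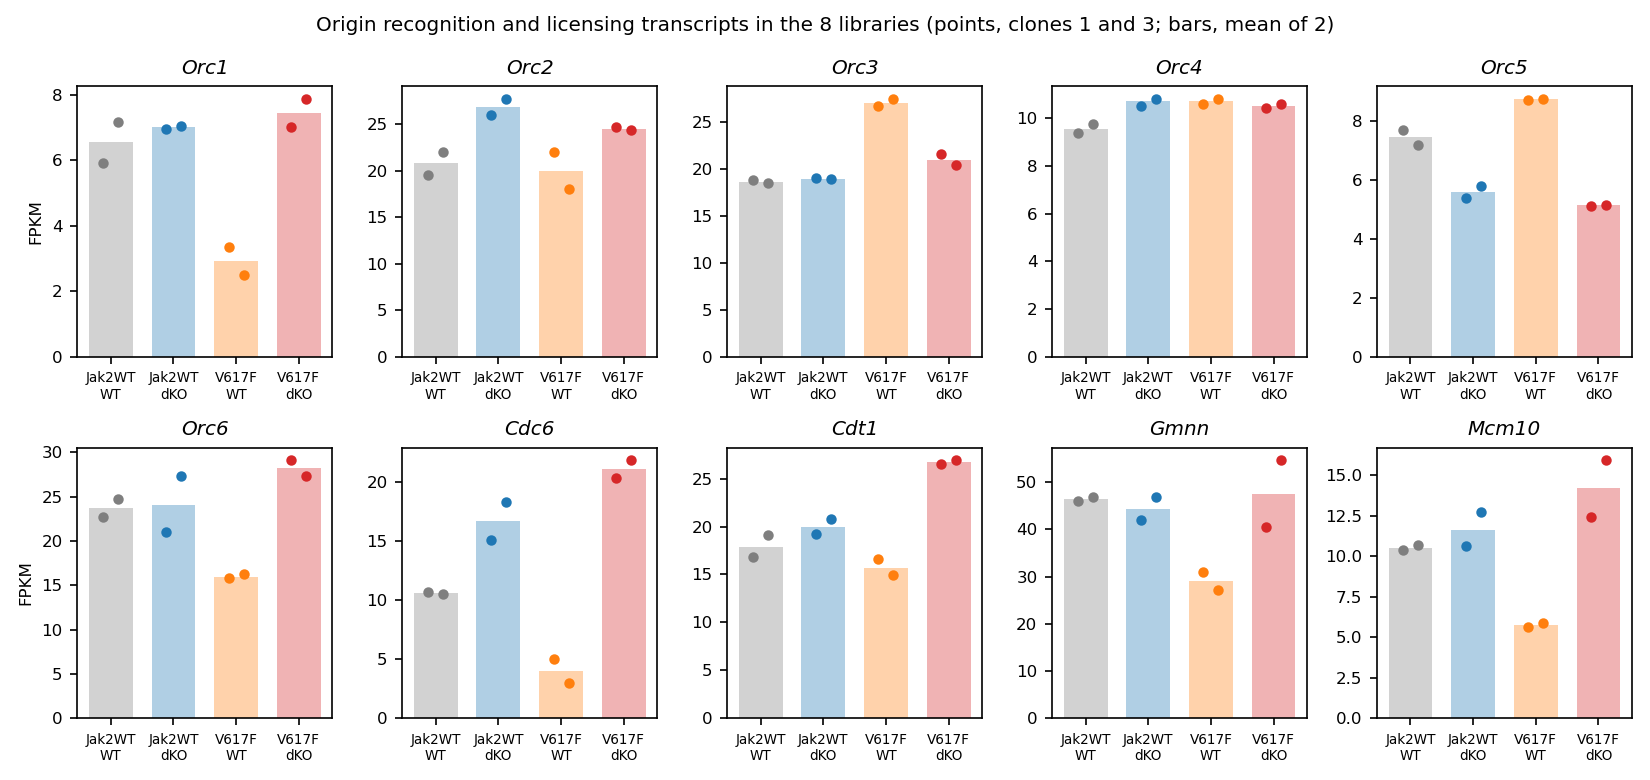
FPKM of each of the 10 members (y axis, starting at 0) in the 4 groups (x axis, Jak2 background over GLUT1/3 status), with 1 point per clone and bars at the mean of 2. The Jak2V617F GLUT1/3 WT clones are lowest for Orc1, Orc6, Cdc6, Cdt1, Gmnn and Mcm10 and highest for Orc3 and Orc5.

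Cdc6 (ENSMUSG00000017499, chr11:98798627-98814766, plus strand), the ATPase that loads the helicase together with Cdt1, changed the most. Its level was 10.7 and 10.5 FPKM in the Jak2WT GLUT1/3 WT clones, 15.1 and 18.3 in the Jak2WT dKO clones, 4.98 and 3.00 in the Jak2V617F GLUT1/3 WT clones and 20.3 and 21.8 in the Jak2V617F dKO clones. The 4 groups did not overlap, and the Jak2V617F background held both the lowest and the highest clones. In Jak2V617F the dKO clones were higher by a log2 fold change of 2.17 (SE 0.18, n = 2 against 2, limma adjusted p = 5.19e-04). In Jak2WT the difference had the same direction, at 0.60 (SE 0.18), and did not pass the threshold (limma adjusted p = 0.0669, between 0.0217 and 0.259 over the alternatives). The rise in Jak2V617F exceeded that in Jak2WT by 1.57 on the log2 scale (SE 0.26, limma adjusted p of the interaction 0.0174). The study ranked its own genes on these same libraries, so the direction of a member here is not independent evidence.

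Mcm10 (ENSMUSG00000026669, chr2:4994525-5017602, minus strand), which acts at origins once the helicase is loaded, rose 2.46-fold in mean FPKM with dKO in Jak2V617F. It was at 10.4 and 10.7 FPKM in Jak2WT GLUT1/3 WT, 10.6 and 12.7 in Jak2WT dKO, 5.65 and 5.90 in Jak2V617F GLUT1/3 WT, and 12.4 and 15.9 in Jak2V617F dKO. The Jak2V617F GLUT1/3 WT clones stood apart below all others, and the other 3 groups overlapped with their neighbours in the order of means. The log2 fold change with dKO was 1.15 (SE 0.13, limma adjusted p = 0.00123) in Jak2V617F and 0.13 (SE 0.13, limma adjusted p = 0.539) in Jak2WT.

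Orc1 (ENSMUSG00000028587, chr4:108436620-108472030, plus strand), the ATPase subunit whose protein in mammalian cells is removed and rebuilt with each cycle, was the least abundant member in both clones of Jak2WT GLUT1/3 WT and of Jak2V617F GLUT1/3 WT. It measured 5.90 and 7.17 FPKM in Jak2WT GLUT1/3 WT, 6.96 and 7.05 in Jak2WT dKO, 3.36 and 2.50 in Jak2V617F GLUT1/3 WT, and 7.02 and 7.87 in Jak2V617F dKO. As with Mcm10, only the Jak2V617F GLUT1/3 WT clones were set apart, on the low side. The dKO clones of Jak2V617F exceeded them 2.54-fold in mean FPKM (log2 fold change 1.11, SE 0.13, limma adjusted p = 0.00148), while in Jak2WT the log2 fold change was 0.09 (SE 0.13, limma adjusted p = 0.679).

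The other subunits of the complex did not share this pattern, with the exception of Orc6, the smallest subunit, which is needed for helicase loading. Orc6 (ENSMUSG00000031697, chr8:86026261-86034907, plus strand) was at 22.7 and 24.7 FPKM in Jak2WT GLUT1/3 WT, 21.0 and 27.3 in Jak2WT dKO, 15.8 and 16.3 in Jak2V617F GLUT1/3 WT, and 29.1 and 27.3 in Jak2V617F dKO. Again the Jak2V617F GLUT1/3 WT clones lay below the rest and the remaining groups overlapped. In Jak2V617F the dKO clones were 1.76-fold higher in mean FPKM (log2 fold change 0.78, SE 0.12, limma adjusted p = 0.00414). Exons of Orc6 share 213 bases with Vps35 on the opposite strand. Vps35 was at 27.9 to 44.7 FPKM over the libraries, at 44.7 and 37.8 in Jak2V617F GLUT1/3 WT and 28.8 and 27.9 in Jak2V617F dKO. The strand setting of the counting is not given, so the split of reads in this stretch is uncertain.

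Orc5 (ENSMUSG00000029012, chr5:22691483-22755427, minus strand), a core subunit, went the other way in both backgrounds. Its FPKM was 7.70 and 7.21 in Jak2WT GLUT1/3 WT, 5.41 and 5.80 in Jak2WT dKO, 8.73 and 8.76 in Jak2V617F GLUT1/3 WT, and 5.13 and 5.17 in Jak2V617F dKO. No 2 groups overlapped, and the order was the reverse of that of Cdc6 and Cdt1. The log2 fold change was -0.66 (SE 0.08, limma adjusted p = 0.00142) in Jak2V617F and -0.36 (SE 0.08, limma adjusted p = 0.0269) in Jak2WT. The fall in Jak2WT lost its call without any 1 of the 4 Jak2WT libraries, with log2 fold changes of -0.40 to -0.31 and adjusted p-values of 0.0852 to 0.178. The difference between the 2 backgrounds was -0.31 on the log2 scale and did not pass the test (limma adjusted p = 0.112). Exons of Orc5 share 399 bases with the pseudogene Gm15421 (ENSMUSG00000084235) on the same strand, which was at 3.67 to 7.93 FPKM, so the split of reads between them is uncertain.

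Orc3 (ENSMUSG00000040044, chr4:34570796-34614944, minus strand), another core subunit, was set apart by 1 group. It was at 18.8 and 18.5 FPKM in Jak2WT GLUT1/3 WT, 19.1 and 19.0 in Jak2WT dKO, 26.7 and 27.5 in Jak2V617F GLUT1/3 WT, and 21.6 and 20.4 in Jak2V617F dKO. The Jak2V617F GLUT1/3 WT clones were the highest, the Jak2V617F dKO clones came next, and both Jak2WT groups lay close together below. Within Jak2V617F the dKO clones were lower by a log2 fold change of -0.36 (SE 0.07, limma adjusted p = 0.0106), a call lost when the 2 groups were fitted alone (adjusted p = 0.0697). Exons of Orc3 share 4237 bases with Akirin2 on the opposite strand, whose FPKM ran from 28.9 to 32.4 in the dKO clones, 36.8 to 37.4 in Jak2WT GLUT1/3 WT and 44.3 to 44.9 in Jak2V617F GLUT1/3 WT. The strand setting of the counting is not given in the sources used here, so reads of the 2 genes cannot be told apart in the shared stretch.

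The remaining core subunits had no call with dKO. Orc2 (ENSMUSG00000026037, chr1:58501930-58544268, minus strand) ranged from 18.0 to 27.7 FPKM over the 8 libraries, with the dKO clones of each background above its GLUT1/3 WT clones and log2 fold changes of 0.29 in Jak2V617F (limma adjusted p = 0.0847) and 0.36 in Jak2WT (limma adjusted p = 0.0703). Orc4 (ENSMUSG00000026761, chr2:48792836-48840289, minus strand) stayed between 9.38 and 10.8 FPKM, with log2 fold changes of -0.03 in Jak2V617F and 0.14 in Jak2WT. Both rises of Orc2 were short of the threshold and passed it under some alternatives, with adjusted p-values down to 0.0104 and 0.0371. Exons of Orc2 share 1239 bases with Nif3l1 and those of Orc4 share 3081 bases with Acvr2a on the opposite strand, and both of these genes were low, at 2.52 to 3.37 and 0.118 to 0.370 FPKM.

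**Figure D2:**
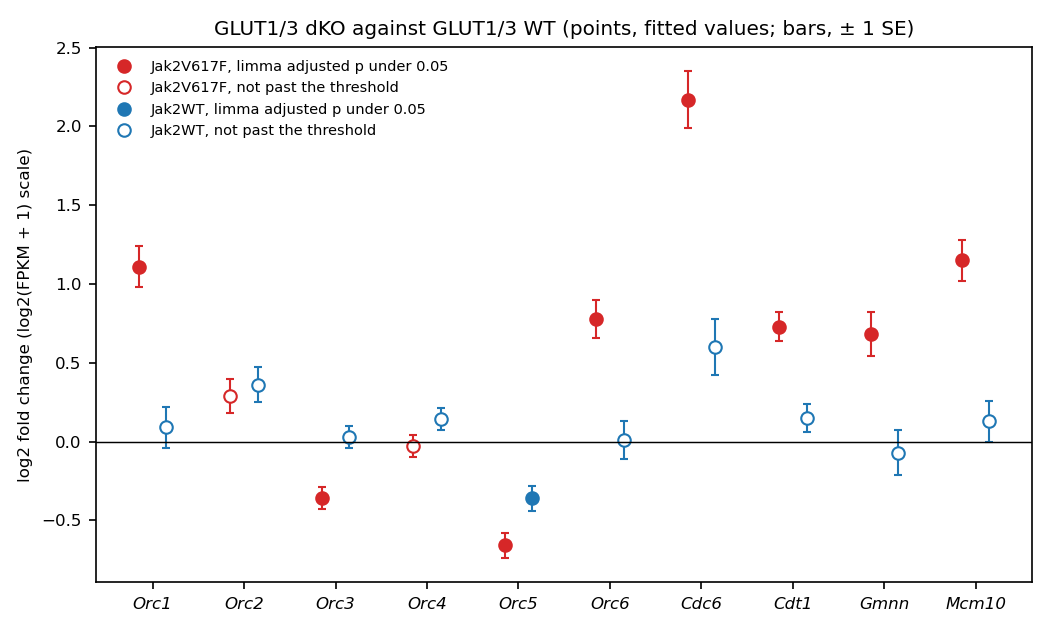
Log2 fold change of each member (y axis, log2(FPKM + 1) scale) for GLUT1/3 dKO against GLUT1/3 WT in Jak2V617F and Jak2WT clones, with bars of 1 SE and filled points where the limma adjusted p is under 0.05. In Jak2V617F 8 members are filled, from -0.66 (Orc5) to 2.17 (Cdc6), whereas in Jak2WT only Orc5 is, at -0.36.

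Cdt1 (ENSMUSG00000006585, chr8:123294754-123300293, plus strand), which delivers the helicase to the origin, was at 16.8 and 19.1 FPKM in Jak2WT GLUT1/3 WT, 19.2 and 20.8 in Jak2WT dKO, 16.6 and 14.9 in Jak2V617F GLUT1/3 WT, and 26.5 and 26.9 in Jak2V617F dKO. The groups did not overlap, but the lower 3 were separated by small gaps, and only the Jak2V617F dKO clones were far from the others. They exceeded the GLUT1/3 WT clones of their background 1.70-fold in mean FPKM (log2 fold change 0.73, SE 0.09, limma adjusted p = 0.00193). In Jak2WT the log2 fold change was 0.15 (SE 0.09, limma adjusted p = 0.313).

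Gmnn (ENSMUSG00000006715, chr13:24935828-24945906, minus strand), which encodes the inhibitor of Cdt1, was the most abundant member in 7 of the 8 libraries. It was at 46.0 and 46.9 FPKM in Jak2WT GLUT1/3 WT, 41.9 and 46.9 in Jak2WT dKO, 31.0 and 27.1 in Jak2V617F GLUT1/3 WT, and 40.5 and 54.6 in Jak2V617F dKO. The Jak2V617F GLUT1/3 WT clones were the lowest, and the widest gap between 2 clones of a group was that of the Jak2V617F dKO clones. The rise with dKO in Jak2V617F had a log2 fold change of 0.68 (SE 0.14, limma adjusted p = 0.0127), and it was not called without Jak2V617F GLUT1/3 WT clone 3 (0.59, adjusted p = 0.0618) or with only the 2 groups in the fit (adjusted p = 0.0627). In Jak2WT the log2 fold change was -0.07 (SE 0.14, limma adjusted p = 0.797).

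The ratio of Gmnn to Cdt1 within a library does not depend on the library total, and it was therefore read as values without a test. It was 2.74 and 2.46 in Jak2WT GLUT1/3 WT, 2.18 and 2.25 in Jak2WT dKO, 1.87 and 1.82 in Jak2V617F GLUT1/3 WT, and 1.53 and 2.03 in Jak2V617F dKO. In every Jak2V617F clone the ratio was below that of every Jak2WT clone. In Jak2WT the dKO clones lay below the GLUT1/3 WT clones, whereas in Jak2V617F the 2 dKO clones fell on either side of the GLUT1/3 WT clones. These are transcript ratios, and geminin and Cdt1 are largely set at the level of protein stability, which was not measured here.

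**Figure D3:**
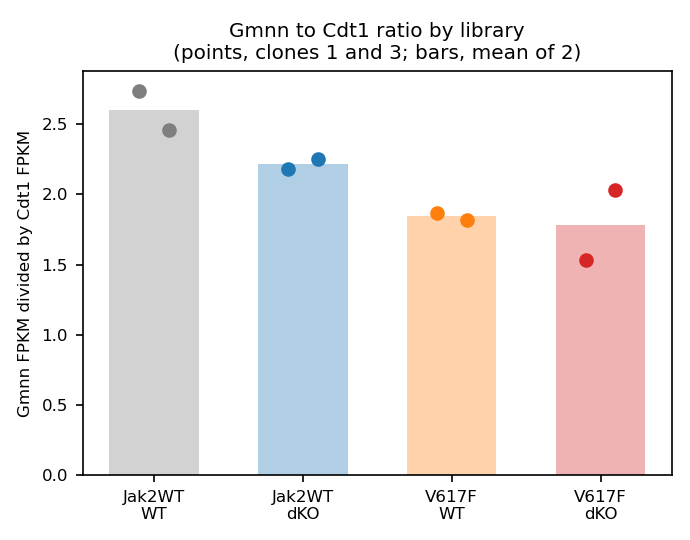
Gmnn FPKM divided by Cdt1 FPKM (y axis, starting at 0) in the 4 groups, with 1 point per clone and bars at the mean of 2. The Jak2WT clones lie between 2.18 and 2.74 and the Jak2V617F clones between 1.53 and 2.03.

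Whether the response to GLUT1/3 loss differed between backgrounds was tested as an interaction. The difference passed the test for 5 members, all with a higher log2 fold change in Jak2V617F, while 4.72% of all genes were called with a higher and 5.91% with a lower one there. The higher share of these calls was 44.4%, and 75.0% with the same summed FPKM. Beside Cdc6, these were Mcm10 (1.03 on the log2 scale, SE 0.18, limma adjusted p = 0.0193), Orc1 (1.02, SE 0.19, limma adjusted p = 0.0214), Orc6 (0.76, SE 0.17, limma adjusted p = 0.0370) and Cdt1 (0.58, SE 0.13, limma adjusted p = 0.0377). For Gmnn the difference was 0.75 (SE 0.20, limma adjusted p = 0.0594) and for Orc3 -0.39 (SE 0.10, limma adjusted p = 0.0541). All 5 calls were lost with no filter (limma adjusted p = 0.0657 to 0.0986). Those of Orc6 and Cdt1 were also lost with no trend (0.0503 and 0.0520), and that of Cdt1 with the replicate block (0.0564). With 1 library left out, the difference of Cdt1 ran from 0.49 to 0.66. Without Jak2WT GLUT1/3 WT clone 1, without Jak2WT GLUT1/3 WT clone 3 or without Jak2WT dKO clone 1, 0 of the members were called by limma, although the values of the 5 stayed between 0.49 and 1.58. In the fit of all libraries, 6 members had an unadjusted p under 0.05 with a higher log2 fold change in Jak2V617F and 2, Orc3 and Orc5, with a lower one.

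Set against the Jak2WT GLUT1/3 WT clones, the Jak2V617F GLUT1/3 WT clones were lower for 5 members and higher for 1. Cdc6 was at 0.377 times (log2 fold change -1.24, SE 0.18, limma adjusted p = 0.00318), Orc1 at 0.448 times (-0.94, SE 0.13, limma adjusted p = 0.00282) and Mcm10 at 0.549 times (-0.77, SE 0.13, limma adjusted p = 0.00518) the mean FPKM of Jak2WT. Gmnn at 0.626 times (limma adjusted p = 0.0134) and Orc6 at 0.675 times (limma adjusted p = 0.0156) were lower as well. Orc3 alone was higher, 1.46-fold (log2 fold change 0.52, SE 0.07, limma adjusted p = 0.00266), and Orc2, Orc4, Orc5 and Cdt1 did not pass, with log2 fold changes of -0.06, 0.15, 0.21 and -0.18. Of all genes, 15.3% were called higher and 14.9% lower. The higher share of the calls over all genes was 50.7%, and 29.4% with the same summed FPKM. The calls of Gmnn and Orc6 were lost without either Jak2WT GLUT1/3 WT clone or without Jak2V617F GLUT1/3 WT clone 3, and that of Orc6 also without Jak2V617F GLUT1/3 WT clone 1, with adjusted p-values up to 0.0724 for Gmnn and 0.0970 for Orc6. This comparison and that of the Jak2V617F dKO clones share the Jak2V617F GLUT1/3 WT libraries, so the low levels there enter both.

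Among the dKO clones, Jak2V617F and Jak2WT were closer. Cdt1 was 1.34-fold higher in Jak2V617F (log2 fold change 0.40, SE 0.09, limma adjusted p = 0.0273), and the call was lost without any 1 of the 4 dKO libraries (0.35 to 0.46, adjusted p = 0.0716 to 0.160). Mcm10 differed by 0.26 (limma adjusted p = 0.209), Cdc6 by 0.32 (limma adjusted p = 0.265) and Orc6 by 0.22 (limma adjusted p = 0.254) on the log2 scale. With limma, 1 member was called higher, also at an unadjusted p under 0.05 and with voom weights on the recovered reads, and 0 were lower by any of the 3. Of all genes 7.12% were called higher and 9.96% lower.

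**Figure D4:**
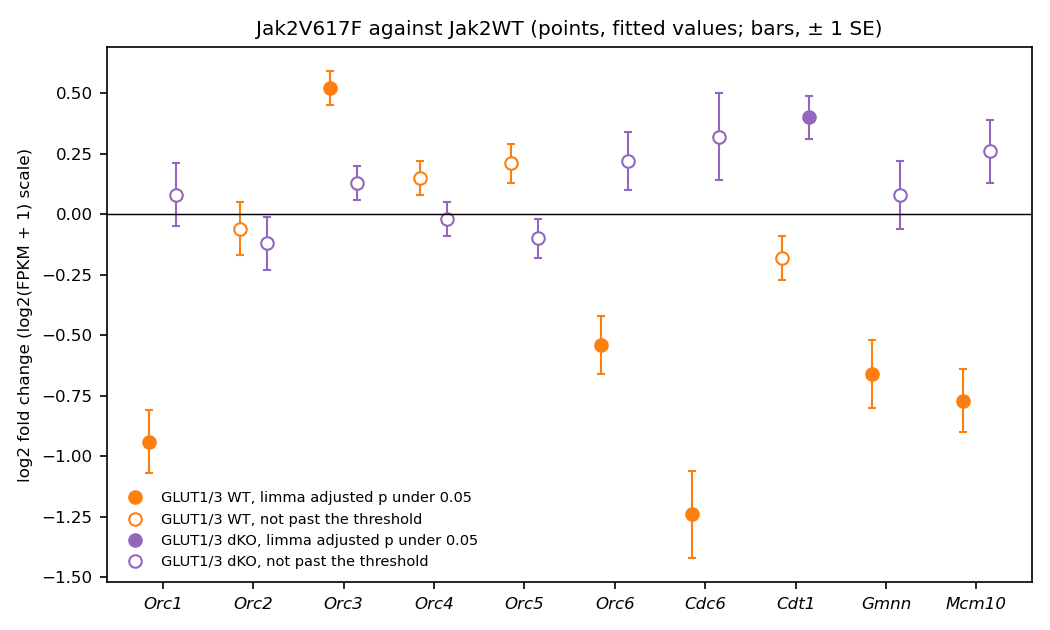
Log2 fold change of each member (y axis, log2(FPKM + 1) scale) for Jak2V617F against Jak2WT among GLUT1/3 WT clones and among dKO clones, with bars of 1 SE and filled points where the limma adjusted p is under 0.05. Among GLUT1/3 WT clones 5 members are filled below 0, down to -1.24 (Cdc6), and Orc3 above it at 0.52, and among dKO clones only Cdt1 is filled, at 0.40.

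The genes that act with the members were read next, in lists that were written with earlier results of these data known. All 7 genes of the loaded helicase list rose with dKO in Jak2V617F, by log2 fold changes from 0.42 to 1.70. The lowest was that of Mcmbp, which binds the ring and is not one of its subunits, and the highest that of the ring subunit Mcm4. The list's median was 1.11 against -0.02 over all genes. Of 13 origin firing factors, 11 rose, from Gins4 at 0.31 to Cdc45 at 1.57, both parts of the active helicase, with a median of 0.92. Gins4 lost its call with no filter, with no trend, with only the groups compared and without any 1 library other than Jak2V617F GLUT1/3 WT clone 1 (adjusted p = 0.0522 to 0.147), and Mcmbp with only the groups compared and without that clone (0.0567 and 0.0602). In Jak2WT 0 of the 7 and 0 of the 13 were called by limma, none at an unadjusted p under 0.05, and with voom 1 of the 7 was lower and 0 of the 13 were called. Among the GLUT1/3 WT clones all 7 genes of the helicase list and 10 of the 13 firing factors were lower in Jak2V617F, down to -1.32 (Mcm4) and -1.10 (Cdc45).

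Factors that bind the members or set their turnover did not move as one. Of 14 listed, Gmnc and Mcidas, relatives of geminin, did not pass the filter. Of the other 12, 4 rose and 1 fell in Jak2V617F dKO clones, with a median of 0.02. Dtl (log2 fold change 0.97), the receptor that directs Cdt1 to the CUL4 ubiquitin ligase, Skp2 (0.78), a receptor of the SCF ubiquitin ligase, Fbxo5 (0.91), an inhibitor of the anaphase-promoting complex, and the deubiquitinase Usp7 (0.31) rose, and the ligase scaffold Cul4a (-0.38) fell. Usp7 lost its call with no filter, with only the groups compared and without any 1 library other than Jak2V617F dKO clone 3 (adjusted p = 0.0553 to 0.130), and Cul4a with only the groups compared and without Jak2V617F GLUT1/3 WT clone 1 (0.0720 and 0.0677). In Jak2WT dKO clones Cdc20 (-0.47) and Fzr1 (-0.42), the activators of the anaphase-promoting complex, fell and 0 of the 12 rose by limma, by voom or at an unadjusted p under 0.05, and both falls lost their call without any 1 of the 4 Jak2WT libraries. Among the GLUT1/3 WT clones, 1 of the 12 was higher in Jak2V617F, Ddb1 (0.37), and 4 were lower, down to Skp2 at -0.85. The call of Ddb1 was lost under 10 alternatives (adjusted p = 0.0534 to 0.176), among them leaving out any 1 Jak2WT library or Jak2V617F GLUT1/3 WT clone 1, and 8 of the 12 were lower with the same summed FPKM.

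Markers of cell cycle phases moved beside the members, and their part in the result was not tested. All 13 S phase markers rose with dKO in Jak2V617F, from Rrm1 (log2 fold change 0.69) to Uhrf1 (1.82). Their summed FPKM was 410 to 443 in Jak2WT GLUT1/3 WT, 440 to 522 in Jak2WT dKO, 221 to 264 in Jak2V617F GLUT1/3 WT and 595 to 600 in Jak2V617F dKO. Thus the order of the groups in this sum was that of Cdc6 and Cdt1, with the Jak2V617F GLUT1/3 WT clones at the bottom, the Jak2V617F dKO clones at the top and the Jak2WT groups overlapping between them. In Jak2WT 0 of the 13 were called by limma, 2 were higher at an unadjusted p under 0.05 and 1 was higher with voom. Of 17 G2 and M phase markers, 8 rose in Jak2V617F dKO clones (up to Birc5 at 0.80) and 6 fell in Jak2WT dKO clones (down to Plk1 at -0.73). The 8 became 2 without Jak2V617F GLUT1/3 WT clone 1, 4 without clone 3 of that group, 5 without Jak2V617F dKO clone 3, 5 with no filter and 3 with only the groups compared. The 6 became 0 without Jak2WT GLUT1/3 WT clone 1, clone 3 or Jak2WT dKO clone 1, 2 with no filter, and 10 with voom, without Jak2V617F dKO clone 1 or without its clone 3. Their summed FPKM was 930 to 949 in Jak2WT GLUT1/3 WT, 692 to 772 in Jak2WT dKO, 636 to 643 in Jak2V617F GLUT1/3 WT and 714 to 858 in Jak2V617F dKO, so that in this sum the Jak2WT GLUT1/3 WT clones were the highest.

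**Figure D5:**
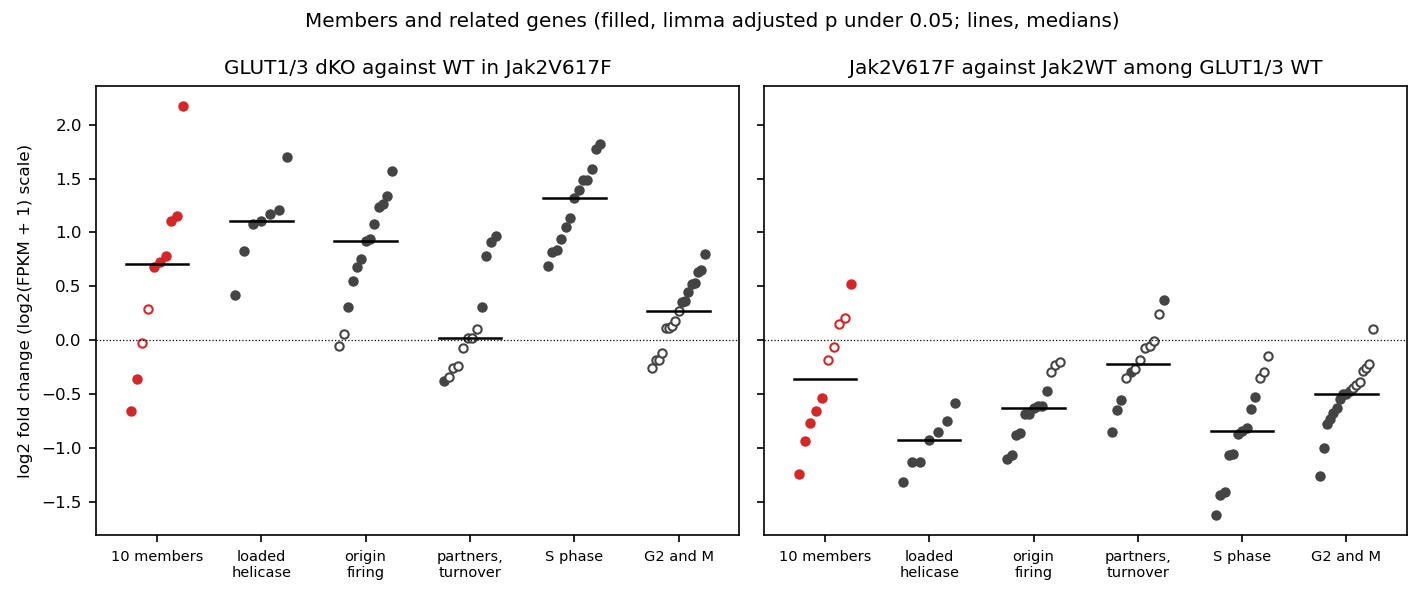
Log2 fold changes (y axis, log2(FPKM + 1) scale) of the 10 members and of the 5 related lists, 1 point per gene, for GLUT1/3 dKO against WT in Jak2V617F (left) and Jak2V617F against Jak2WT among GLUT1/3 WT clones (right), filled where the limma adjusted p is under 0.05 and with lines at the medians. The median of the members is 0.70 on the left and -0.36 on the right, those of the S phase markers 1.32 and -0.84, and that of the partners and turnover list 0.02 on the left.

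Markers of blood lineages also moved with the groups. Summed FPKM of the erythroid markers was 103 to 122 in Jak2WT GLUT1/3 WT, 260 to 303 in Jak2WT dKO, 567 to 929 in Jak2V617F GLUT1/3 WT and 2636 to 4743 in Jak2V617F dKO. The highest values in the list were those of globin transcripts, with Hba-a1 at up to 2007, Hbb-bs at up to 2209 and Hbb-bt at up to 376 FPKM. Gata1, a regulator of the lineage, ranged from 24.9 to 58.1 FPKM. It was lower with dKO in Jak2V617F (log2 fold change -0.50, SE 0.13, limma adjusted p = 0.0246). Between backgrounds Gata1 was higher in Jak2V617F, among GLUT1/3 WT clones (0.81, limma adjusted p = 0.00423) and among dKO clones (0.48, limma adjusted p = 0.0418). Alas2 and Slc4a1 did not exceed 0.312 FPKM in any library. Of 12 erythroid markers listed, 8 were tested, and 6 of these rose and 1, Gata1, fell with dKO in Jak2V617F. Of the 5 myeloid markers tested out of 12, 3 fell in the same comparison and 0 rose, by limma. The erythroid sum was higher in Jak2V617F GLUT1/3 WT than in either Jak2WT group, and its part in the members' levels was not tested.

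Across the 8 libraries the members did not form a single pattern. Each member's log2(FPKM + 1) was scaled to unit spread and the 10 were averaged. Pearson's r of each gene with that average was taken as a description, with groups, clones and library totals shared between the points. Each member is part of the average, so its r is partly set by itself, which does not hold for genes outside the members. Cdc6 (r = 0.95), Cdt1 (0.93), Mcm10 (0.92), Orc6 (0.89), Orc1 (0.87), Orc2 (0.84) and Gmnn (0.80) ran with the average, Orc4 (0.16) did not, and Orc3 (-0.61) and Orc5 (-0.92) ran against it. Outside the members, the genes most like the average were Sec23b (0.99), Gna11, Vac14, Usp1 and Nup214 (0.98 each). Mean FPKM of Usp1, a deubiquitinase, was 69.2 in Jak2WT GLUT1/3 WT, 84.1 in Jak2WT dKO, 60.0 in Jak2V617F GLUT1/3 WT and 95.1 in Jak2V617F dKO. Sec23b, a coat protein of secretory vesicles, was at 14.4, 16.4, 13.0 and 18.2 FPKM in the same groups and thus had the same order over a narrower range.

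Read against the promoter letters, members with and without an E2F match were found on both sides. Of the 6 members that rose with dKO in Jak2V617F, Cdc6, Cdt1, Orc1 and Gmnn held a match and Mcm10 and Orc6 did not. Orc3, which fell, held a match as well, and Orc5, Orc2 and Orc4 held none.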

How the data were processed

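RNA of 8 libraries was analysed, 2 clones in each of 4 groups assigned from the labels, with 0 columns left out. Per the labels and methods, the authors cleaned poly(A) reads with fastp 1.0.1, aligned them to mm39 with HISAT2 2.2.1 and counted genes with featureCounts 2.0.6. The deposited values are FPKM, so lengths are accounted for, but the library total, annotation version and strand setting are not given in the sources used here. FPKM times length was a whole multiple of a step in 100% of values (tolerance 0.01 step), which gave reads per gene. Genes that reached an FPKM of 1 in 2 or more libraries were tested with limma 3.58.1 (R 4.3.3, trend) on log2(FPKM + 1), with 4 group means in 1 fit and Benjamini-Hochberg adjustment over 11818 genes at 0.05. Precision was set by the spread between clones, which was larger than the sampling of reads gives. Members, related lists, motifs and named genes (all members, genes of the related lists, and the 5 genes most like the members' average) were chosen with earlier results of these data known. Of 56748 gene identifiers, 56017 matched GENCODE vM39, which gave starts and exons. Alternatives were another pseudocount, filters, scalings, voom on recovered reads, fits of single comparisons, a replicate block and leaving out each library. Some marker genes are not reported here. Scripts were tested on simulated data.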

Additional observations from a re-analysis of the deposited data

Results flagged for a closer look

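The response to GLUT1/3 loss differed between Jak2V617F and Jak2WT clones for 5 members, by limma's test of the interaction on log2(FPKM + 1). The difference, Jak2V617F minus Jak2WT, was 1.57 for Cdc6, 1.03 for Mcm10, 1.02 for Orc1, 0.76 for Orc6 and 0.58 for Cdt1. In Jak2V617F both dKO clones exceeded both GLUT1/3 WT clones for each of the 5. In Jak2WT the same held for Cdc6 and Cdt1, whereas the values of Orc1, Orc6 and Mcm10 overlapped between dKO and GLUT1/3 WT. The share of all genes that separate in this way is not given here, and the 5 were picked by a test on these same values. The separation is therefore a description and adds no evidence to the calls. Jak2V617F GLUT1/3 WT libraries are the lowest of all for each of these genes, and the interaction takes them in with the same weight as the other 3 groups. All 5 calls were lost with no filter on low values (adjusted p = 0.0657 to 0.0986) and without Jak2WT GLUT1/3 WT clone 1, Jak2WT GLUT1/3 WT clone 3 or Jak2WT dKO clone 1, where the differences lay between 0.49 and 1.58.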

How the results depend on the processing

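Of the 50 tests of members, 21 were called. Over 379 alternative values of these, 322 kept direction and call, 57 lost the call and 0 reversed, and 10 results were called under every alternative, which were Cdc6, Cdt1, Mcm10, Orc1, Orc5 and Orc6 with dKO in Jak2V617F and Cdc6, Mcm10, Orc1 and Orc3 between the backgrounds among GLUT1/3 WT clones. Over 521 values of the tests not called, 16 passed the threshold and 20 reversed. The same summed FPKM per library moved the median of all genes by up to 0.16 on the log2 scale (the interaction, -0.04 to 0.12), a shift shared by all genes of a library. Voom on recovered reads called 2344 genes higher and 1617 lower with dKO in Jak2V617F, against 1614 and 1919. The number of members called with dKO in Jak2WT (1) was 0 with no filter, 3 with voom and 3 with only the groups compared, and 0 to 3 with 1 library left out (0 without any Jak2WT library). Among dKO clones (1) it was 0 with no filter and 0 with only the groups compared, and 0 to 1 with 1 library left out (0 without any dKO library). For the interaction (5) it was 0 with no filter, 3 with no trend, and 0 to 4 with 1 library left out (0 without either Jak2WT GLUT1/3 WT clone or Jak2WT dKO clone 1, 2 without Jak2V617F GLUT1/3 WT clone 1, and 3 without Jak2WT dKO clone 3, Jak2V617F GLUT1/3 WT clone 3 or Jak2V617F dKO clone 3). No filter tests more genes and left-out libraries leave fewer residual degrees of freedom, and the cause of the changes was not tested.

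Values that reversed all belonged to tests not called. With the same summed FPKM and with voom, respectively, log2 fold changes with dKO were 0.06 and 0.06 for Orc4 in Jak2V617F, and -0.06 and -0.03 for Orc3 and -0.08 and -0.02 for Orc6 in Jak2WT. Orc4 among dKO clones was 0.02 and 0.02, and the interaction of Orc2 was 0.12 and 0.08 and that of Orc4 0.01 with the same summed FPKM. With 1 library left out, values ran from -0.03 to 0.21 for Orc1, -0.17 to 0.19 for Orc6 and -0.15 to 0.01 for Gmnn with dKO in Jak2WT, from -0.20 to 0.08 for Orc2 between backgrounds among GLUT1/3 WT clones, from -0.13 to 0.29 for Gmnn among dKO clones and from -0.20 to 0.07 for the interaction of Orc2. The log2 ratio of Gmnn to Cdt1 in Jak2V617F GLUT1/3 WT was 0.84 with a pseudocount of 1, against 0.88. For 49 results of other named genes, 0 of 882 alternative values reversed and 178 lost the call. Of 900 alternative counts over the gene lists, 785 stayed within 1.5 times.

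Deviations of clones with the same number correlated between -0.254 and 0.152 across genes. With 1 difference per group this cannot decide whether the numbers mark pairs, and the labels do not say so. With the replicate block the members called were 8, 1, 6, 1 and 4 in the comparisons of dKO in Jak2V617F, dKO in Jak2WT, backgrounds among GLUT1/3 WT, backgrounds among dKO and the interaction, where Cdt1 lost its call (adjusted p = 0.0564). Among the other named genes, the block ended the calls of Usp7 (adjusted p = 0.0561) and Gins4 (0.0566) with dKO in Jak2V617F. Among further genes of the lists it ended those of Kif20a with dKO in Jak2WT (0.0535) and of Mcm6 (0.0772) and Pcna (0.0541) between backgrounds among dKO clones. The S phase markers called higher in that last comparison were 4 in the main fit and 2 with the block, so Pcna was not the only one lost. The block moved the genes called with dKO in Jak2V617F to 1486 higher and 1740 lower, and a crossed pairing, chosen after seeing the data, gave 1736 and 1700 against 1812 and 1765 between backgrounds among GLUT1/3 WT clones.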
